A study of Rattus norvegicus with 40 samples.

Results

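The tricarboxylic acid (citric acid) cycle runs in the mitochondrial matrix, where it oxidises the acetyl groups of acetyl-CoA and hands the electrons to the respiratory chain. The genes followed here encode enzymes of that cycle, and all are reported whatever their values. The set was chosen with earlier results of these data known. Its names are Cs, Idh3a, Idh3b, Idh3g, Ogdh, Dlst, Suclg1, Fh and Mdh2. Of the 9 names, 8 had at least 1 probe set under their own symbol in the array's annotation. Fh, fumarase, is not analysed here for want of a probe set under its symbol. The 8 genes had 11 probe sets in all, 4 of them for Cs and 1 for each other gene, and they were tested among 13438 genes. For Cs the brightest probe set stood for the gene, and all 4 are described.

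Livers came from adult male rats of the Sprague Dawley SD:CD strain, in 4 groups of 10 separate animals on NIH-07 diet. One group received vehicle and the others a low (0.1 mg/kg), middle (1 mg/kg) or high (10 mg/kg) dose of GW7647, by oral gavage once a day over 4 days, and the livers were removed 24 h after the last dose. GW7647 is a synthetic agonist of PPAR-alpha, the nuclear receptor that drives fatty acid oxidation genes in liver. RNA of each whole liver was read on 1 Affymetrix array, so the values mix all liver cell types, and fewer cells of a type cannot be told apart from less RNA per cell.

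In liver the cycle takes up acetyl-CoA from fatty acids and pyruvate, and it also supplies carbon for glucose and amino acid synthesis. Citrate synthase makes citrate, and the NAD-linked isocitrate dehydrogenase and the 2-oxoglutarate dehydrogenase complex release carbon dioxide. Succinyl-CoA ligase forms a nucleoside triphosphate, and malate dehydrogenase regenerates the oxaloacetate that the next turn needs. Levels below are log2 values per probe set. Levels of different genes are not compared, since each probe set has its own response.

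The deposited scale itself moved with dose. From the low to the high dose, the median log2 change of all genes against vehicle was -0.03, 0.16 and 0.26. After quantile normalization, which gives every array the same distribution of values, it was 0.00, -0.01 and -0.02. Below, rose and fell are used of genes that passed an adjusted p of 0.05 on both scales, in one direction. Poly-A control transcripts, added to the RNA before labelling, also moved with dose, from 5.57 ± 0.37 on the vehicle arrays to 5.84 ± 0.28, 6.22 ± 0.73 and 6.56 ± 0.38 at the 3 doses (mean log2 ± SD, n = 10 each). Vehicle array 1 stood apart from the rest of its group, with a poly-A level of 6.50 against 5.15 to 5.75 on the other 9 vehicle arrays and a 3′ to 5′ actin difference of 2.20 against 2.68 to 3.14. It was at the same time the highest vehicle array for Idh3g, Ogdh and Mdh2 and the lowest for Idh3a and Dlst, so results that rest on it are also given without it.

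Sequence was available in RefSeq (GRCr8) for the promoters of 8 of the 9 names, Idh3a being the one that is not shown. The 250 bases before the start used for each promoter window are printed for the 3 genes with the largest increases and for Dlst, whose increase was among the smaller ones. They show what these promoters share and where they differ. The annotated genes Dlst and Ogdh begin inside their printed windows, at 110489576 and 85363949, so part of each window lies within the gene. The Idh3b window searched below lies wholly within its annotated gene. Capitals mark CCGGAAG, the core bound by ETS factors such as GABP, and TGACG, the short site of the cyclic AMP response element, on either strand. The windows lie at chr4:106866079-106866328 on the plus strand for Suclg1, chr14:85363781-85364030 on the plus strand for Ogdh, chr12:26543842-26544091 on the minus strand for Mdh2 and chr6:110489456-110489705 on the plus strand for Dlst, each 5′ to 3′ along the gene.
Suclg1: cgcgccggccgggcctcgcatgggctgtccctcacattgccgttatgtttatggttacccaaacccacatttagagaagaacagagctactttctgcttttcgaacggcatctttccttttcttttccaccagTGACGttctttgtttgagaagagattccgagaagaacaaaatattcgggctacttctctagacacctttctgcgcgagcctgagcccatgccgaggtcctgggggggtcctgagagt
Ogdh: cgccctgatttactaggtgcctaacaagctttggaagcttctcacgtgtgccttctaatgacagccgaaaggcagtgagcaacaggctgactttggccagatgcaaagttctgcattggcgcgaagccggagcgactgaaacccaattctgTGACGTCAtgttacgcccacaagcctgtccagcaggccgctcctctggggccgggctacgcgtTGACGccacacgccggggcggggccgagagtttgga
Mdh2: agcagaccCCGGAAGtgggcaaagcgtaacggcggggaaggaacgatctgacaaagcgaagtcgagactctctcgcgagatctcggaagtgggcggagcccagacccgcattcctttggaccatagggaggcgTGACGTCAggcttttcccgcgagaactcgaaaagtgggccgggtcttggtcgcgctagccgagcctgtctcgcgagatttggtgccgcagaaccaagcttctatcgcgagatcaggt
Dlst: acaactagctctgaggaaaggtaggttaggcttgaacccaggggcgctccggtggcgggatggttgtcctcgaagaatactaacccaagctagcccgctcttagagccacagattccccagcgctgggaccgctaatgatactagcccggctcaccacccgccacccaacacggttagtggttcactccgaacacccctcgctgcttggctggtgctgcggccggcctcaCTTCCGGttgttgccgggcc

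Motifs were searched on both strands of the 300-base RefSeq windows, 250 bases before the start to 50 after it, of these 8 promoters and of all 33469 promoters. CCGGAAG was found in 4 of the 8 (Idh3b, Idh3g, Dlst and Mdh2) and in 8.75% of all promoters. The longer ACCGGAAGT was found in Dlst alone among the 8 and in 1.2% of all promoters, and it contains the whole of CCGGAAG. The palindrome TGACGTCA was found in Ogdh and Mdh2, at positions -99 to -92 and -117 to -110 from the start, and in 1.83% of all promoters. TGACG, which that palindrome contains on both strands, was found in 6 of the 8 (Idh3b, Idh3g, Ogdh, Suclg1, Fh and Mdh2) and in 21.2% of all promoters. The commoner elements CCAAT and GGGCGG were found in 6 and 5 of the 8 and in 37.5% and 33.1% of all promoters.

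The DR1 element that PPAR-alpha and its partner RXR bind, a direct repeat of AGGTCA with 1 base between the copies, was not found in the 8 windows and occurred in 0.0538% of all promoters. A relaxed DR1, with AGGNCA for each copy, was not found in the 8 either and occurred in 0.415%. TCAAGGTCA, the element of the estrogen-related receptors, was likewise not found in the 8 and occurred in 0.433% of all promoters. The core element of nuclear respiratory factor 1, and a form of it with 1 free base, were not found in the 8 and occurred in 0.852% and 4.25% of all promoters. A match, or its absence from such a short window, is a description of the letters only.

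**Figure D1:**
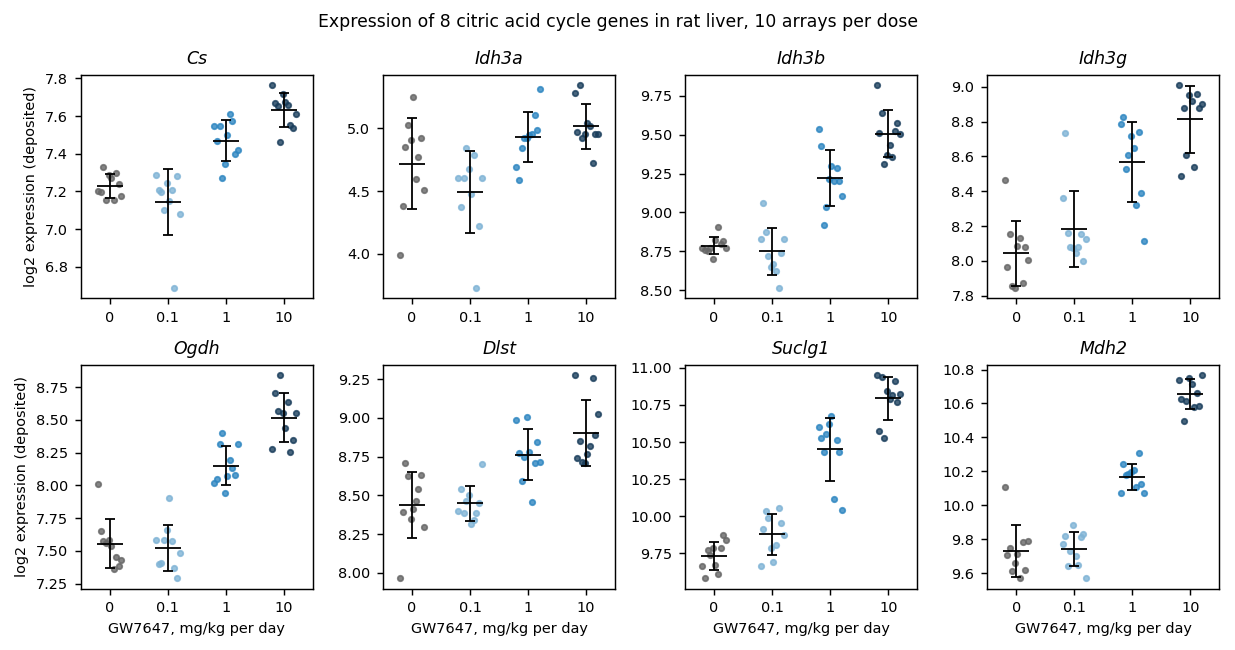
Deposited log2 expression (y axis) of the 8 cycle genes by daily GW7647 dose in mg/kg (x axis). Points are arrays, 10 per group, and lines give the mean ± SD. At 10 mg/kg every array lay above every vehicle array for all genes but Idh3a, and the 0.1 mg/kg points overlap the vehicle points throughout.

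At the highest dose some cycle genes passed on both scales and others on the deposited scale only. The difference between these sets was not itself tested. Suclg1, Ogdh, Mdh2, Idh3g and Idh3b rose at 10 mg/kg, by 0.72 to 1.06 on the deposited log2 scale and by 0.41 to 0.79 after quantile normalization. Cs, Dlst and Idh3a were higher on the deposited scale only, by 0.30 to 0.47, and their quantile-normalized changes of 0.03 to 0.14 did not pass. So 5 of 8 genes rose and none fell, where 20.4% of all genes tested rose and 7.69% fell by the same rule. On the deposited scale alone all 8 were called higher, against 56.5% of all genes. The 10 mg/kg arrays lay wholly above the vehicle arrays for 7 of the 8 on the deposited scale, and for Idh3b, Suclg1 and Mdh2 after quantile normalization, beside 13% and 3.63% of all genes. The median change of the 8 was 0.74 deposited and 0.43 quantile-normalized, beside 0.26 and -0.02 over all genes. Suclg1, Ogdh, Mdh2, Idh3g and Idh3b stayed called after quantile normalization in each of 40 repeats of the fit that left out 1 array, and Cs, Dlst and Idh3a were called in none.

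Suclg1, the subunit of succinyl-CoA ligase shared by its ATP- and GTP-forming versions, had the largest change of the 8 on both scales. Its deposited level ran from 9.58 through a median of 9.76 to 9.88 on the vehicle arrays and from 10.53 through 10.82 to 10.95 at 10 mg/kg. The groups did not overlap on either scale, and the lowest treated array lay far above the highest vehicle array. The change was 1.06 ± 0.07 (SE, n = 10 each), or 2.09-fold, with an adjusted p of 5.22e-16 (limma, Benjamini-Hochberg over all genes), and 0.79 after quantile normalization (adjusted p 3.95e-13).

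Ogdh encodes the decarboxylating first component of the 2-oxoglutarate dehydrogenase complex. Its level ran from 7.37 through 7.55 to 8.01 in vehicle livers and from 8.26 through 8.55 to 8.84 at 10 mg/kg. The groups did not overlap on the deposited scale, and vehicle array 1 held the vehicle maximum, which after quantile normalization lay above 2 of the 10 treated arrays. Ogdh rose by 0.96 ± 0.08 (1.95-fold, adjusted p 3.18e-13), and by 0.66 after quantile normalization (adjusted p 2.36e-08). Without vehicle array 1 the quantile-normalized rise was 0.71.

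Mdh2, the mitochondrial malate dehydrogenase, ran from 9.57 through 9.71 to 10.11 on the vehicle arrays, the maximum again being array 1. At 10 mg/kg it ran from 10.50 through 10.64 to 10.77. No treated array came down to the vehicle range on either scale. Mdh2 rose by 0.92 ± 0.05 (1.90-fold, adjusted p 8.37e-18), and by 0.66 after quantile normalization (adjusted p 1.93e-13).

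The NAD-linked isocitrate dehydrogenase is built from a catalytic alpha subunit (Idh3a) with beta (Idh3b) and gamma (Idh3g) subunits that support or regulate it. Idh3b ran from 8.70 through 8.77 to 8.90 in vehicle livers and from 9.31 through 9.51 to 9.82 at 10 mg/kg. Its groups were apart on both scales. Idh3b rose by 0.72 ± 0.07 (1.64-fold, adjusted p 7.77e-12), and by 0.41 after quantile normalization (adjusted p 1.89e-06).

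Idh3g ran from 7.84 through 8.04 to 8.47 in vehicle livers, array 1 being the highest, and from 8.49 through 8.89 to 9.01 at 10 mg/kg. The deposited groups touched without overlapping, and 7 of 10 treated arrays lay above all vehicle arrays after quantile normalization. Idh3g rose by 0.77 ± 0.09 (1.70-fold, adjusted p 4.28e-09), and by 0.45 after quantile normalization (adjusted p 7.29e-05).

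Idh3a, the catalytic subunit, had the widest spread of the 8 among the vehicle arrays, with an SD of 0.36. Its probe set was dim, with a mean log2 level of 4.79 over all arrays, where the other 7 genes had means of 5 or more. It lay above the array median of all probe sets on all 40 arrays, but that median averaged only 2.47 to 2.71 in the 4 groups. It ran from 3.99 through 4.81 to 5.25 in vehicle livers and from 4.72 through 4.97 to 5.35 at 10 mg/kg. The groups overlapped widely, and 2 of 10 treated arrays lay above every vehicle array. The deposited difference was 0.30 ± 0.12 (adjusted p 0.0299), and 0.03 after quantile normalization (adjusted p 0.839, 95% interval -0.18 to 0.23). Without vehicle array 1, the lowest vehicle array for Idh3a, the latter was -0.04 (adjusted p 0.749). The deposited call was lost when vehicle array 1, 2 or 10 or 10 mg/kg array 1 or 3 was left out.

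Dlst, the lipoyl-carrying succinyltransferase core of the 2-oxoglutarate dehydrogenase complex, ran from 7.97 through 8.44 to 8.71 in vehicle livers and from 8.71 through 8.84 to 9.28 at 10 mg/kg. The deposited groups met at the edge without overlapping. The difference was 0.47 ± 0.08 (adjusted p 5.70e-06), and 0.14 after quantile normalization (adjusted p 0.143, 95% interval -0.02 to 0.30). Without vehicle array 1, the lowest vehicle array for Dlst, the latter was 0.09 (adjusted p 0.332). With the poly-A control level added as a covariate to the quantile-normalized fit, the Dlst difference was 0.25 (adjusted p 0.0138). When arrays were instead shifted to a common median, Dlst was 0.23 and Cs 0.16 above vehicle (adjusted p 0.0386 and 0.0353).

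**Figure D2:**
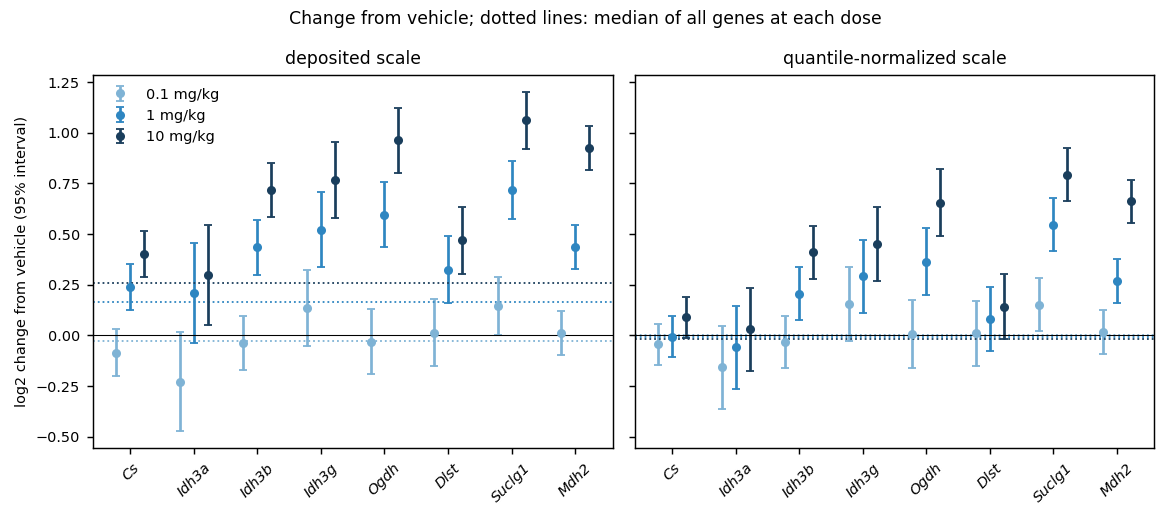
Log2 change from vehicle (y axis) of the 8 cycle genes (x axis) at 0.1, 1 and 10 mg/kg, on the deposited scale (left) and after quantile normalization (right). Points are limma estimates from 10 arrays a group, bars are 95% intervals and dotted lines are the medians of all 13438 genes. On the right, the 10 mg/kg intervals of Cs, Idh3a and Dlst cross 0 and the other 5 do not.

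Cs, citrate synthase, carries acetyl-CoA into the cycle and was read by 4 probe sets that did not give the same answer. The brightest, 1375295_PM_at, ran from 7.15 through 7.22 to 7.33 in vehicle livers and from 7.46 through 7.66 to 7.77 at 10 mg/kg. Its deposited groups did not overlap, with a difference of 0.40 ± 0.06 (adjusted p 1.41e-07). After quantile normalization 6 of 10 treated arrays lay above the vehicle range, and the difference was 0.09 (adjusted p 0.145, 95% interval -0.01 to 0.19).

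The probe set 1369967_PM_at, designed on the RefSeq mRNA of Cs, rose on both scales. Its deposited level ran from 6.50 through 6.68 to 6.95 in vehicle livers and from 7.17 through 7.32 to 7.65 at 10 mg/kg, with no overlap. The change was 0.68 ± 0.06 (adjusted p 2.42e-11 over all 31042 probe sets tested), and 0.35 after quantile normalization (adjusted p 1.11e-04). The vehicle maximum and the lowest treated arrays overlapped after quantile normalization.

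For the remaining Cs probe sets, no difference passed after quantile normalization. For 1384201_PM_at the 10 mg/kg difference was 0.26 deposited (adjusted p 0.0857) and 0.01 quantile-normalized. For 1396453_PM_at, which lay below the array median on all 40 arrays, it was 0.33 (adjusted p 4.09e-04) and 0.06. Cs therefore counted among the genes that rose by 1 of its 4 probe sets, and not by the brightest. The difference between probe sets was not tested.

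**Figure D3:**
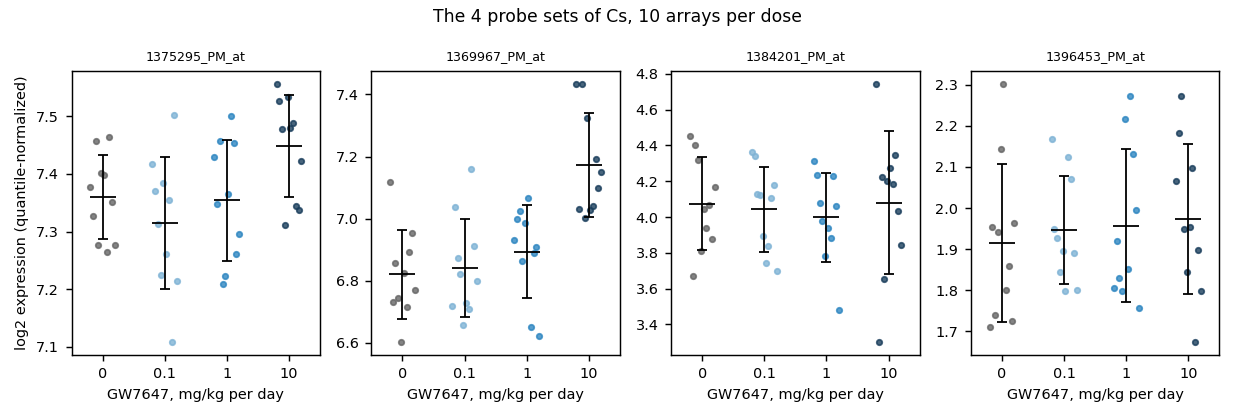
Quantile-normalized log2 expression (y axis) of the 4 Cs probe sets by daily GW7647 dose in mg/kg (x axis), with arrays as points, 10 per group, and lines for mean ± SD. At 10 mg/kg 1369967_PM_at lies 0.35 above vehicle and the brightest probe set, 1375295_PM_at, 0.09 above, and the treated and vehicle points overlap in all 4 panels.

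At 1 mg/kg the same genes were the ones that rose. Of the 8, 7 were called higher on the deposited scale, beside 38.2% of all genes, and 5 rose on both scales, beside 11.1%. In a fit of only genes with a group mean of log2 5 or more, 52.1% were called higher on the deposited scale. Suclg1 had risen by 0.72 deposited and 0.55 quantile-normalized (adjusted p 4.16e-08), and all 10 arrays lay above the vehicle range on both scales. The arrays were likewise apart for Idh3b on the deposited scale, and 4.69% of all genes were apart by the deposited values and 1.3% by the quantile-normalized ones. Ogdh had risen by 0.60 and 0.36 (adjusted p 0.00118), and Mdh2 by 0.44 and 0.27 (adjusted p 2.37e-04).

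Idh3g had risen by 0.52 deposited and 0.29 quantile-normalized (adjusted p 0.0153), and Idh3b by 0.44 and 0.21 (adjusted p 0.0171). Some calls at this dose depended on the scaling. When arrays were shifted to a common median, Idh3b and Mdh2 were 0.17 above vehicle (adjusted p 0.0869 and 0.0926) and Idh3g 0.25 above (adjusted p 0.0460). When arrays were shifted to the level of their hybridisation controls, Idh3b was 0.27 and Idh3g 0.35 above vehicle (adjusted p 0.137 and 0.0683). Dlst was 0.33 above vehicle deposited and 0.08 quantile-normalized, Cs 0.24 and -0.01, and Idh3a 0.21 and -0.06.

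At 1 mg/kg, arrays 1 to 4 had low poly-A control levels, 5.25 to 5.70, and arrays 5 to 10 had high ones, 6.34 to 7.39. With only arrays 1 to 4, whose poly-A levels lie in the vehicle range, the quantile-normalized change was 0.61 for Suclg1, 0.42 for Ogdh, 0.43 for Idh3g and 0.27 for Mdh2 (adjusted p 3.51e-07, 0.0115, 0.00769 and 0.0115). Idh3b was 0.23 above vehicle there (adjusted p 0.0929). With the poly-A level as a covariate over all arrays, these 5 genes passed at both 1 and 10 mg/kg.

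At 0.1 mg/kg none of the 8 genes passed on either scale, with adjusted p of 1.00 for each (limma, Benjamini-Hochberg). Few genes passed at this dose at all: 0.0819% were higher and 0.00744% lower on both scales. Suclg1 was 0.14 above vehicle, with 6 of 10 arrays above every vehicle array (unadjusted p 0.0466, limma), and was the only one of the 8 with an unadjusted p under 0.05. Its level at this dose ran from 9.67 through 9.90 to 10.06. Idh3g was 0.14 above and Idh3a 0.23 below vehicle, with 95% intervals of -0.05 to 0.32 and -0.47 to 0.02.

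Between the doses, Suclg1, Ogdh, Mdh2 and Idh3b rose from 0.1 to 1 mg/kg, by 0.40, 0.36, 0.25 and 0.24 after quantile normalization. These 4 of 8 stand beside 10.5% of all genes that rose in that step on both scales. The same 4 genes rose again from 1 to 10 mg/kg, by 0.25, 0.29, 0.39 and 0.20, beside 8.55% of all genes. Mdh2 was the only one of the 8 whose 10 mg/kg arrays all lay above all 1 mg/kg arrays, on both scales, beside 2.46% of all genes deposited and 0.93% quantile-normalized. On the deposited scale 8 of 8 were called higher in the first step and 6 in the second, beside 45.4% and 24.2% of all genes. In a fit of only genes with a group mean of log2 5 or more, the shares were 60.1% and 17.5%. The second step of Idh3b (adjusted p 0.0225) was lost when 1 mg/kg array 3 or 10 mg/kg array 1 was left out, where the adjusted p reached 0.0579. Idh3g was 0.14 and 0.16 higher at these steps after quantile normalization and passed neither. Over the whole dose course, the F test of limma called 8 of 8 genes on the deposited scale, beside 71% of all genes, and 5 after quantile normalization, beside 47.9%.

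Subunits of 1 complex were then compared on the same array, where a shift of equal size at all levels cancels. A shift that differs between dim and bright probe sets does not cancel. On 0.1 mg/kg array 8, quantile normalization moved Idh3a from 3.73 to 4.32 and Idh3b from 8.51 to 8.69. There were 4 pairs at 3 doses, tested by a two-sided permutation test with 100000 resamples and adjusted over all 12 tests. Idh3a minus Idh3b was -4.07 ± 0.36 in vehicle livers and -4.49 ± 0.15 at 10 mg/kg (SD, n = 10 each). The change of -0.42 ± 0.12 (SE) was the one that passed (permutation p 0.00383, adjusted 0.0460), with 1 of 10 treated arrays below every vehicle array. After quantile normalization it was -0.38 (adjusted permutation p 0.0539). Leaving out 1 array at a time gave -0.36 to -0.50, and the difference passed without vehicle array 1 and in 4 of the other 19 repeats. Both differences with Idh3a rest on its 1 dim probe set, with a mean level of 4.79.

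Idh3a minus Idh3g changed by -0.47 at 10 mg/kg (interval of 2 SE -0.82 to -0.12, adjusted permutation p 0.0604). Dlst minus Ogdh, the core against the first component of the 2-oxoglutarate dehydrogenase complex, was 0.88 ± 0.37 in vehicle livers and 0.39 ± 0.38 at 10 mg/kg. Its change of -0.49 had a 2 SE interval of -0.83 to -0.16 (adjusted permutation p 0.0604). Idh3b minus Idh3g changed by -0.05 with an interval of -0.21 to 0.11.

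Vehicle array 1 made these changes at 10 mg/kg smaller in size, and it was the lowest vehicle array in each difference. Leaving it out moves the vehicle mean and narrows the vehicle spread together, so the p-values without it are descriptive only. On that array Dlst was 7.97 and Ogdh 8.01, and Idh3a 3.99 and Idh3g 8.47. Without it, the change at 10 mg/kg was -0.50 for Idh3a minus Idh3b, -0.60 for Idh3a minus Idh3g and -0.60 for Dlst minus Ogdh, with adjusted p of 0.00117, 0.00123 and 0.00360 (exact permutation test). Idh3a minus Idh3g then also passed at 0.1 and 1 mg/kg, with -0.49 and -0.44 (adjusted p 0.0137 and 0.0277, exact permutation test). At 1 mg/kg Dlst minus Ogdh was -0.37 and at 0.1 mg/kg Idh3b minus Idh3g was -0.22 (adjusted p 0.0115 and 0.00360, exact permutation test). Dlst minus Ogdh at 10 mg/kg also passed without 10 mg/kg array 1 or 8, at -0.56 in both.

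**Figure D4:**
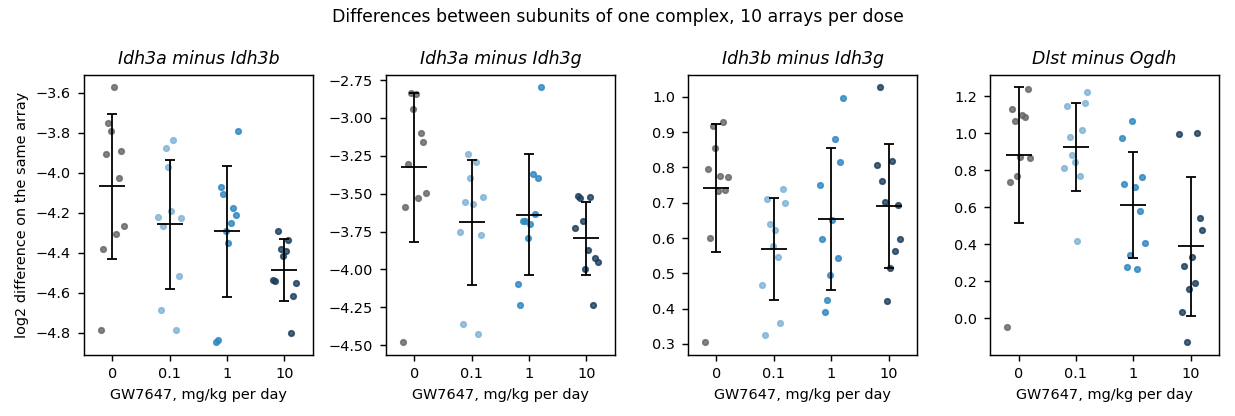
Difference in deposited log2 expression between subunits of 1 complex on the same array (y axis) by daily GW7647 dose in mg/kg (x axis). Points are arrays, 10 per group, and lines give mean ± SD. Idh3a minus Idh3b and Dlst minus Ogdh lie lower at 10 mg/kg, by 0.42 and 0.49, and vehicle array 1 is the lowest vehicle point in each panel.

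The remaining enzymes of the cycle gave a similar mixture. Of 8 such genes measured, 4 rose at 10 mg/kg on both scales, with list medians of 0.39 deposited and 0.08 quantile-normalized. Beside the counts of this and the following lists, 20.4% of all genes rose and 7.69% fell at 10 mg/kg. Sucla2 and Suclg2, the ATP- and GTP-specific partners of Suclg1, rose by 0.71 and 0.56 deposited and by 0.39 and 0.29 quantile-normalized (adjusted p 6.58e-04 and 4.57e-05). At 1 mg/kg both had already risen, by 0.29 and 0.24 quantile-normalized.

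In succinate dehydrogenase, which passes electrons to ubiquinone, the membrane anchor Sdhc and the iron-sulfur subunit Sdhb rose by 0.26 and 0.14 quantile-normalized (adjusted p 4.74e-05 and 0.0370). The flavoprotein Sdha and the second anchor Sdhd were at -0.03 and -0.11 and did not pass. Of the 4 assembly factors of this enzyme, Sdhaf4 and Sdhaf1 rose, by 0.53 and 0.25. Dld, the component that Ogdh and Dlst share with other dehydrogenase complexes, was 0.35 above vehicle deposited and 0.03 quantile-normalized. The NADP-linked Idh2 was 0.20 above deposited and -0.10 quantile-normalized.

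Of 8 measured enzymes outside the cycle that catalyse its reactions or are close relatives, 4 rose and 2 fell at 10 mg/kg, with list medians of 0.54 deposited and 0.27 quantile-normalized. Me1, the cytosolic malic enzyme that makes NADPH, rose by 3.09 ± 0.14 deposited (8.53-fold) and 2.80 quantile-normalized (adjusted p 1.59e-20). Aco1, the cytosolic aconitase that doubles as an iron regulatory protein, rose by 1.90 deposited and 1.60 quantile-normalized, and the cytosolic Idh1 by 0.57 and 0.27. Me2 rose by 0.54 and 0.32 from a dim vehicle level of 2.72. Me3, a mitochondrial malic enzyme, fell by 1.44 deposited and 1.69 quantile-normalized. Dhtkd1, a relative of Ogdh that acts on 2-oxoadipate in lysine breakdown, fell by 0.23 and 0.49. Cytosolic Mdh1 was 0.18 above vehicle deposited and -0.10 quantile-normalized, so the 2 malate dehydrogenases gave different calls, a difference that was not itself tested.

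Among 9 measured enzymes that feed carbon into the cycle or draw it off, 2 rose and 3 fell at 10 mg/kg. The rises were near the 20.4% of all genes that rose, and 7.69% of all genes fell. Pc, pyruvate carboxylase, rose by 0.66 deposited and 0.35 quantile-normalized (adjusted p 0.0204), and Got2, the mitochondrial aspartate aminotransferase, by 0.52 and 0.22. Pck1, the cytosolic enzyme that turns oxaloacetate into phosphoenolpyruvate, fell by 1.47 deposited and 1.73 quantile-normalized. Gls2, liver glutaminase, fell by 0.71 and 0.99, and Cps1, the first enzyme of the urea cycle, by 0.15 and 0.36. Of 5 measured enzymes of the propionate route into succinyl-CoA, none rose or fell on both scales at 10 mg/kg. On the deposited scale alone 3 of the 5 were called higher, near the 56.5% of all genes called higher there.

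Of 8 carriers that move cycle intermediates or pyruvate across the inner membrane, 2 rose and 2 fell at 10 mg/kg. The rises were near the 20.4% of all genes that rose, and 7.69% of all genes fell. Mpc2, a subunit of the mitochondrial pyruvate carrier, rose by 1.18 deposited and 0.91 quantile-normalized, and the citrate carrier Slc25a1 by 0.77 and 0.48. The aspartate-glutamate carrier Slc25a12 fell by 0.85 and 1.10, and the 2-oxoadipate carrier Slc25a21 by 0.63 and 0.89. Mpc1, the partner of Mpc2, was at -0.17 deposited (adjusted p 0.0961) and -0.43 quantile-normalized (adjusted p 6.84e-05), so it did not pass on both. Of 5 genes measured that make or attach lipoate, the cofactor that Dlst carries, Mcat rose, by 0.77 and 0.46.

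As references, 7 of 11 mitochondrial proteins outside the cycle rose, with medians of 0.59 deposited and 0.27 quantile-normalized, beside 0.74 and 0.43 for the cycle genes. Tomm40 of the import channel rose by 1.10 and 0.78, and the chaperone Hspd1 by 0.95 and 0.68. All 10 measured genes of fatty acid oxidation rose, with medians of 1.46 and 1.19. Among them Ehhadh of the peroxisomal route rose by 3.13 and 2.91, and Hadha of the mitochondrial trifunctional protein by 2.27 and 1.98. The difference between these lists was not tested.

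**Figure D5:**
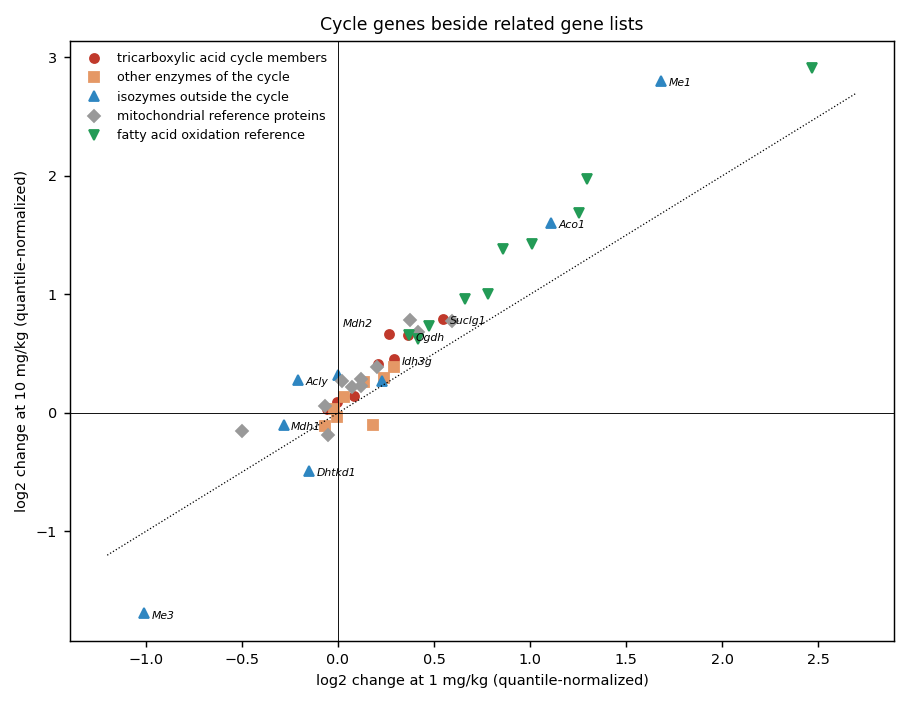
Quantile-normalized log2 change against vehicle at 1 mg/kg (x axis) and at 10 mg/kg (y axis) for the cycle genes, other cycle enzymes, isozymes outside the cycle, mitochondrial reference proteins and fatty acid oxidation genes, 1 point per gene, with some points named. Both axes share the vehicle arrays, and the dotted line marks equal change. Me1 and Aco1 lie at 2.80 and 1.60 at 10 mg/kg, above the cycle genes, which reach 0.79 for Suclg1, and Me3 lies at -1.69, the lowest of the genes plotted.

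Markers of liver cell types moved beside these changes. All 4 measured macrophage markers of 6 listed fell at 10 mg/kg on both scales, among them Clec4f by 0.86 deposited and Cd163 by 1.03, and the mean quantile-normalized level of the list fell from 7.25 (6.95 to 7.47 over the vehicle arrays) to 6.26 (5.96 to 6.64). The quantile-normalized mean of 5 hepatocyte markers was 12.47 (12.36 to 12.58) in vehicle livers and 12.22 (12.03 to 12.36) at 10 mg/kg, and Hnf4a and Serpina1 fell. None of the 4 endothelial markers rose and 1 fell. In the stellate list 1 of 5 rose and 1 fell, in the cholangiocyte list 2 of 5 rose and 1 fell, and in the erythroid list 1 of 2 rose. Of all genes 20.4% rose and 7.69% fell. The 4 lymphocyte markers did not pass on both scales and were dim, with a quantile-normalized mean of 2.30 in vehicle livers. The part of these markers in the changes of the cycle genes was not tested.

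Among 5345 genes with a mean log2 level of 5 or more, the genes closest to each riser over all 40 quantile-normalized arrays were found by the root mean square difference after subtraction of the vehicle mean. The nearest to Suclg1 were Mpc2 at 0.127, then Hadh, which oxidises hydroxyacyl-CoA in the mitochondrion, at 0.152, and Slc27a2, a fatty acid transporter and acyl-CoA synthetase, at 0.160. The nearest to Mdh2 were Mrpl12 of the mitochondrial ribosome at 0.128, Ndufa7 of respiratory complex I at 0.130 and the proteasome subunit Psmb3 at 0.131. For Ogdh they were Tfr2, the second transferrin receptor, at 0.130, the splicing factor Sf3b3 at 0.137 and Cluh, which binds mRNAs of mitochondrial proteins, at 0.141. For Idh3b they were Dnajc15 at 0.106, Fabp1, the liver fatty acid binding protein, at 0.113, and Tbca at 0.127. For Idh3g they were Pdf at 0.140 and the complex I subunits Ndufs3 at 0.150 and Ndufa9 at 0.151. These distances describe likeness over the same 40 arrays, whose dose groups and array effects all genes share.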

How the data were processed

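Liver RNA of 40 rats was read on 1 array each, with the group and dose of each array read off its label. Deposited were log2 expression values per probe set, and the submitters' processing notes name GCRMA and Partek; versions of both are not given in the sources used. They were used as deposited. Arrays give no depth, so precision is limited by how many there are. Of 31139 probe sets, 19069 had 1 gene symbol, and 18989 were matched to RefSeq by Entrez number. Each of 13438 genes was represented by its brightest probe set, by the mean of the 40 arrays.

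All 4 groups entered 1 linear model per gene (R 4.3.3 with limma 3.58.1, functions lmFit and eBayes, leaving 36 residual degrees of freedom; data.table version 1.17.8), with two-sided tests and Benjamini-Hochberg adjustment over all genes. The fit was repeated after quantile normalization, and a rise or fall needed both. Tests were checked on simulated data with independent noise and no shift of whole arrays. That check does not bear on the scale shift between the dose groups. Pairs of subunits were compared by permutation in Python 3.11.15 (numpy 2.4.6, pandas 2.3.3), and figures drawn with matplotlib 3.10.9. All members were named whatever their values; other listed genes only where they passed at 10 mg/kg on both scales or a result turned on them, at most 6 a list; and the 3 genes most like each riser. The members and lists were chosen with earlier results of these data known.

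Replicate numbers recur across groups. Deviations from the group means correlated by 0.0755 on average over 60 array pairs with the same number (-0.33 to 0.51). Over 540 pairs with different numbers the average was -0.0076 (-0.48 to 0.52). The labels do not say that the numbers mark a shared litter, batch or day, and this was not tested. No block was used in the reported fit. Other scalings, a poly-A covariate, a 1.2-fold test, other Cs probe sets and fits without single arrays were tried.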

Additional observations from a re-analysis of the deposited data

Results flagged for a closer look

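Levels of the 8 genes were checked for an array far from the rest in each of the 4 groups, 32 checks in all, of which chance would flag about 1 in 20. In 5 of the 32, 1 array lay apart. Vehicle array 1 accounted for 3 of them, as the highest of its group: Mdh2 was 10.11 with the nearest array at 9.791, Ogdh 8.011 with the nearest at 7.654, and Idh3g 8.466 with the nearest at 8.154. This is the array whose poly-A control level was 6.50. At 0.1 mg/kg, Cs on array 8 was the lowest at 6.686, with the nearest at 7.082. The upper quartile of all values on that array was 4.27, against 4.47 to 4.87 on the other 9 of its group. Also at 0.1 mg/kg, Idh3g on array 2 was the highest at 8.733, with the nearest at 8.364. The part of the labelling controls in these levels was not tested.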

How the results depend on the processing

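The counts of cycle genes called depended on how the arrays were scaled. On the deposited scale they were 7 at 1 mg/kg, 8 at 10 mg/kg, 8 from 0.1 to 1 mg/kg, 6 from 1 to 10 mg/kg and 8 over the dose course. Other counts are listed where they differed from the deposited ones by over 1.5 times. Shares in parentheses are of all genes called higher under the same setting (over the dose course, called). Quantile normalization gave 5 at 10 mg/kg (20.4%), 4 from 0.1 to 1 mg/kg (10.5%) and 5 over the course (47.9%). Shifting arrays to a common median gave 3 at 1 mg/kg (7.6%) and 2 from 0.1 to 1 mg/kg (7.0%). At 10 mg/kg all of the genes but Idh3a (adjusted p 0.687, limma) were called higher under that shift (21.6%). Shifting them to the hybridisation controls gave 3 at 1 mg/kg (7.89%), 5 at 10 mg/kg (16.6%), 4 from 0.1 to 1 (12.6%), 2 from 1 to 10 (4.52%) and 5 over the course (33.1%). Quantile normalization with the poly-A level as a covariate gave 4 from 0.1 to 1 mg/kg (10.6%) and 5 over the course (43.7%). At 10 mg/kg all of the genes but Cs and Idh3a (adjusted p 0.251 and 0.683, limma) were called higher with that covariate (17.2%). With only arrays 1 to 4 at 1 mg/kg, quantile-normalized, the counts were 4 at 1 mg/kg (6.99%), 3 from 0.1 to 1 (6.48%) and 1 from 1 to 10 mg/kg (3.94%). A test against 1.2-fold gave 3 at 1 mg/kg (6.56%), 4 from 0.1 to 1 (8.28%) and 1 from 1 to 10 mg/kg (1.48%). With Cs at the probe set of its RefSeq mRNA and quantile normalization, chosen after seeing the data, 4 passed from 0.1 to 1 mg/kg (10.5%). At 10 mg/kg Cs, 0.35 above vehicle, was then called higher beside the 5 called without this choice (20.5%). At 0.1 mg/kg against vehicle the count was 0 under each of these settings except the one with arrays 1 to 4, which does not bear on that comparison.

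The replicate block changed no call count on the deposited scale by over 1.5 times. The replicate block with quantile normalization was added after seeing the data. It gave 5 at 10 mg/kg (20.6%), 4 from 0.1 to 1 mg/kg (10.8%) and 5 over the course (48.2%), the same counts as without the block. Leaving out 1 array at a time gave 7 or 8 calls at 10 mg/kg and 4 to 6 from 1 to 10 mg/kg.

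Among changes called on the deposited scale, these turned sign, none of them called after the turn. Cs at 1 mg/kg was -0.0051 after quantile normalization, with and without the replicate block, -0.0302 after the median shift and -0.0076 with the poly-A covariate. Under the median shift the step from 0.1 to 1 mg/kg was -0.0042 for Cs and -0.0153 for Dlst. With arrays 1 to 4 and quantile normalization together it was -0.0268 for Idh3a. The change of Idh3a at 1 mg/kg, 0.21 and not called on the deposited scale, was -0.06 after quantile normalization, -0.06 after the median shift, -0.04 with the poly-A covariate and -0.18 with arrays 1 to 4, quantile-normalized, and was not called under these.

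For subunit differences, Idh3a minus Idh3b at 10 mg/kg was -0.38 after quantile normalization (adjusted permutation p 0.0539). Leaving out 1 array gave -0.50 to -0.36 for it, -0.49 to -0.28, -0.44 to -0.25 and -0.60 to -0.41 for Idh3a minus Idh3g at the 3 doses, -0.22 to -0.15 for Idh3b minus Idh3g at 0.1 mg/kg, and -0.37 to -0.23 and -0.60 to -0.44 for Dlst minus Ogdh at 1 and 10 mg/kg. Averaging all probe sets was not run for these pairs, since each of those genes has 1. Of 13438 genes, 8626 (64.2%) were called at 10 mg/kg on the deposited scale and 3153 (23.5%) under the 1.2-fold test. With all 31042 probe sets tested, 20490 probe sets (66.0%) were called. The causes of these shifts were not tested. The scale shift between groups and the rise of the poly-A controls with dose limit what small differences can show, and 3' arrays give no isoforms.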
